A study of Drosophila melanogaster with 90 samples.

Results

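The odorant receptors of Drosophila melanogaster were followed through the whole series, in late pupae that had spent metamorphosis under altered gravity. Members were the probe sets of the array that carry a single gene symbol which is either Orco or the letters Or with a number and an optional letter. The rule found 63 probe sets of 57 genes among the 18769 probe sets tested, and the gene table lists 60 genes of this family. Or35a, Or46a and Or69a are each read by 3 probe sets and every other gene by 1 probe set. The family is present on 90 arrays of Oregon R pupae, all collected shortly before eclosion, in 32 groups of 2 to 4 arrays, and each array is a separate pool of pupae whose sex is not given in the sources used here. The RPM (random positioning machine, 20 arrays, level labelled 0g) was compared with 1g controls without constraint, after a cold step that preceded the exposure (ΔT), and after the cold step in a closed container that limits oxygen (ΔT/↓O2, here called hypoxia). The magnet (30 arrays) held closed containers at its 0g*, 1g* and 2g* positions, with and without the cold step, beside external 1g controls that were closed or open. All these positions lie in a strong magnetic field, which by the study's methods is stronger at 1g* than at 0g* and 2g*. Comparisons of a position with the external controls, or of 0g* or 2g* with 1g*, therefore differ in field as well as in gravity level. The LDC (large diameter centrifuge, 40 arrays) gave 12g, 6g and a rotational control beside 1g controls in all 4 combinations of cold step and container.

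Insect odorant receptors are membrane proteins of the dendrites of olfactory neurons. A neuron typically makes a single tuning receptor, which sets the odours it answers to, and the coreceptor Orco, which carries the tuning receptor into the cilium and forms a cation channel with it. The neurons sit in basiconic, trichoid and coeloconic sensilla of the antenna and in the maxillary palp, while a further set of receptors works in the dorsal organ of the larva. These neurons are a small part of the animal, and in RNA of whole pupae fewer such neurons and less receptor RNA per neuron cannot be told apart.

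The values are log2 intensities, and array medians of the LDC lie above those of the other facilities, so differences between groups were tested only within a facility and within a probe set. The place of a probe set among all others is given as a description of its brightness, which differs between probes and is no measure of abundance. All 63 probe sets lay below the median of all probe sets in every facility (5.1 in the RPM, 5.07 in the magnet and 6.49 in the LDC), and 58, 57 and 57 of them lay below the lower quartile. The mean of a member over the arrays of a facility ranged from 2.75 to 4.38 in the RPM, from 2.79 to 4.37 in the magnet and from 3.89 to 5.64 in the LDC. The family was therefore read close to the dim end of the arrays. In the annotation several member genes overlap another gene. Among those named below these are Or1a, Or10a, Or23a, Or43b, Or45a, Or45b, Or46a, Or59b, Or59c, Or67b, Or85a, Or88a, Or94a, Or94b and Or98a. Which of the overlapping genes a probe set reads was not checked. Other markers of the olfactory organs were partly dim as well. Of 28 probe sets of olfactory partners (odorant binding proteins, Snmp proteins, other coreceptors and regulators of olfactory neurons) 10 to 11 exceeded the median, and of 17 probe sets of antennal ionotropic receptors 0 did in any facility. The 6 photoreceptor and the 6 muscle probe sets all exceeded it. Genes of the lists without a probe set of that single symbol were left out. These were ninaE, ninaC, Rh3, Rh4, Rh5 and Rh6 of photoreceptors and Mhc of muscle. Among the lists used below, Syt1, Syx1A and comt of neurons and Lsp1alpha, Lsp1beta and Lsp1gamma of the fat body were missing too.

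The median over the members on each array followed the dim end of that array. It ran from 3.11 to 3.38 in the RPM, from 3.05 to 3.57 in the magnet and from 4.29 to 4.88 in the LDC. Without Orco, its correlation with the 10th percentile of all probe sets of the same array was 0.884 over the 20 RPM arrays, 0.981 over the 30 magnet arrays and 0.943 over the 40 LDC arrays, all given as descriptions of values from the same arrays. Orco itself correlated with that percentile at -0.23, 0.884 and 0.104. Pairs of receptors correlated across arrays at a median of 0.216, 0.479 and 0.493, and at 0.0423, 0.0747 and 0.0783 after quantile normalization, which gives every array the same distribution. In the LDC a parallel second experiment supplied 21 of the arrays. Its member medians lay between 4.29 and 4.51, and those of the first experiment (19 arrays) between 4.45 and 4.88. Because the dim end moves with the groups and the experiments, the counts below are set beside those over all probe sets and beside the counts after quantile normalization.

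**Figure D1:**
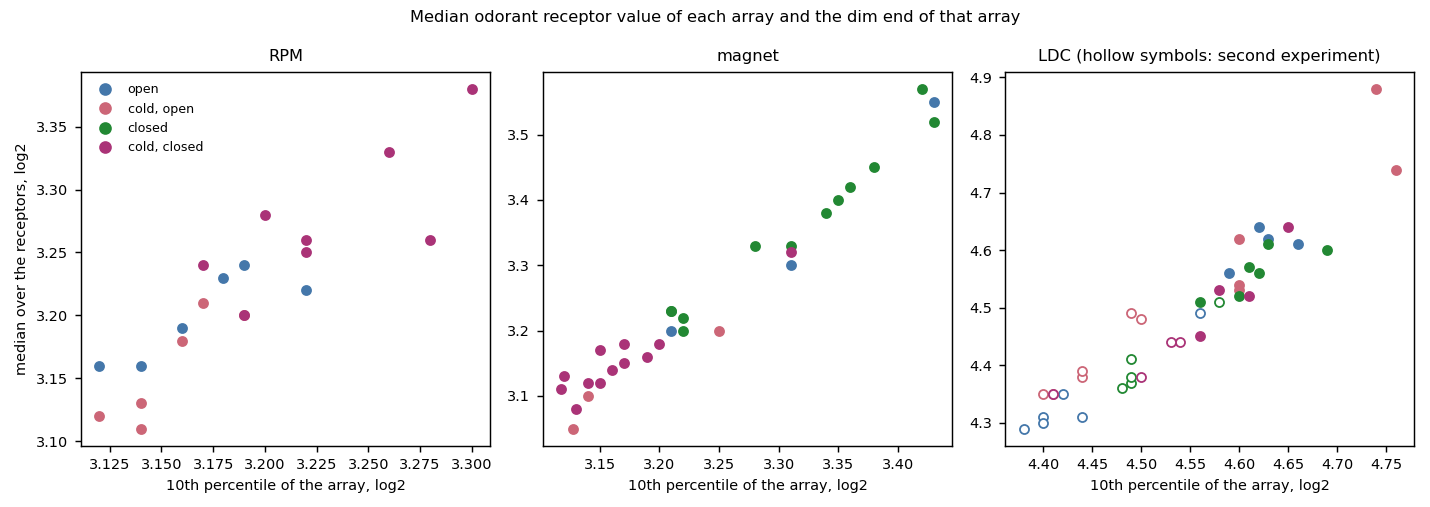
Each point is 1 array, with the 10th percentile of all its probe sets on the x axis and the median of the 63 odorant receptor probe sets on the y axis, both in log2 intensity, in the RPM (20 arrays), the magnet (30) and the LDC (40). Colours give the environment, hollow symbols in the LDC panel mark the second experiment, and the receptor median rises with the dim end of the array in every panel.

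Orco was the member whose level varied most in the magnet, between 3.43 and 5.13, and the only member that differed among the groups in all 3 facilities (limma F test, adjusted p = 0.0283 in the RPM, 0.000373 in the magnet and 0.01 in the LDC). In the RPM its group means ran from 3.42 ± 0.21 (SD, n = 3) in the 1g controls without constraint to 4.04 ± 0.09 (n = 3) in the RPM after the cold step. In the magnet every group without the cold step averaged between 4.33 ± 0.26 and 4.52 ± 0.53, and the groups after it between 3.51 ± 0.08 and 4.17 ± 0.43 (n = 3 each). In the LDC the lowest means were 4.96 ± 0.03 (6g, n = 2) and 5.05 ± 0.21 (1g, n = 3), both without constraint, and the highest was 5.96 ± 0.08 (n = 2) at 6g after the cold step. Neighbours in these orders mostly lay within the spread of each other's arrays.

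**Figure D2:**
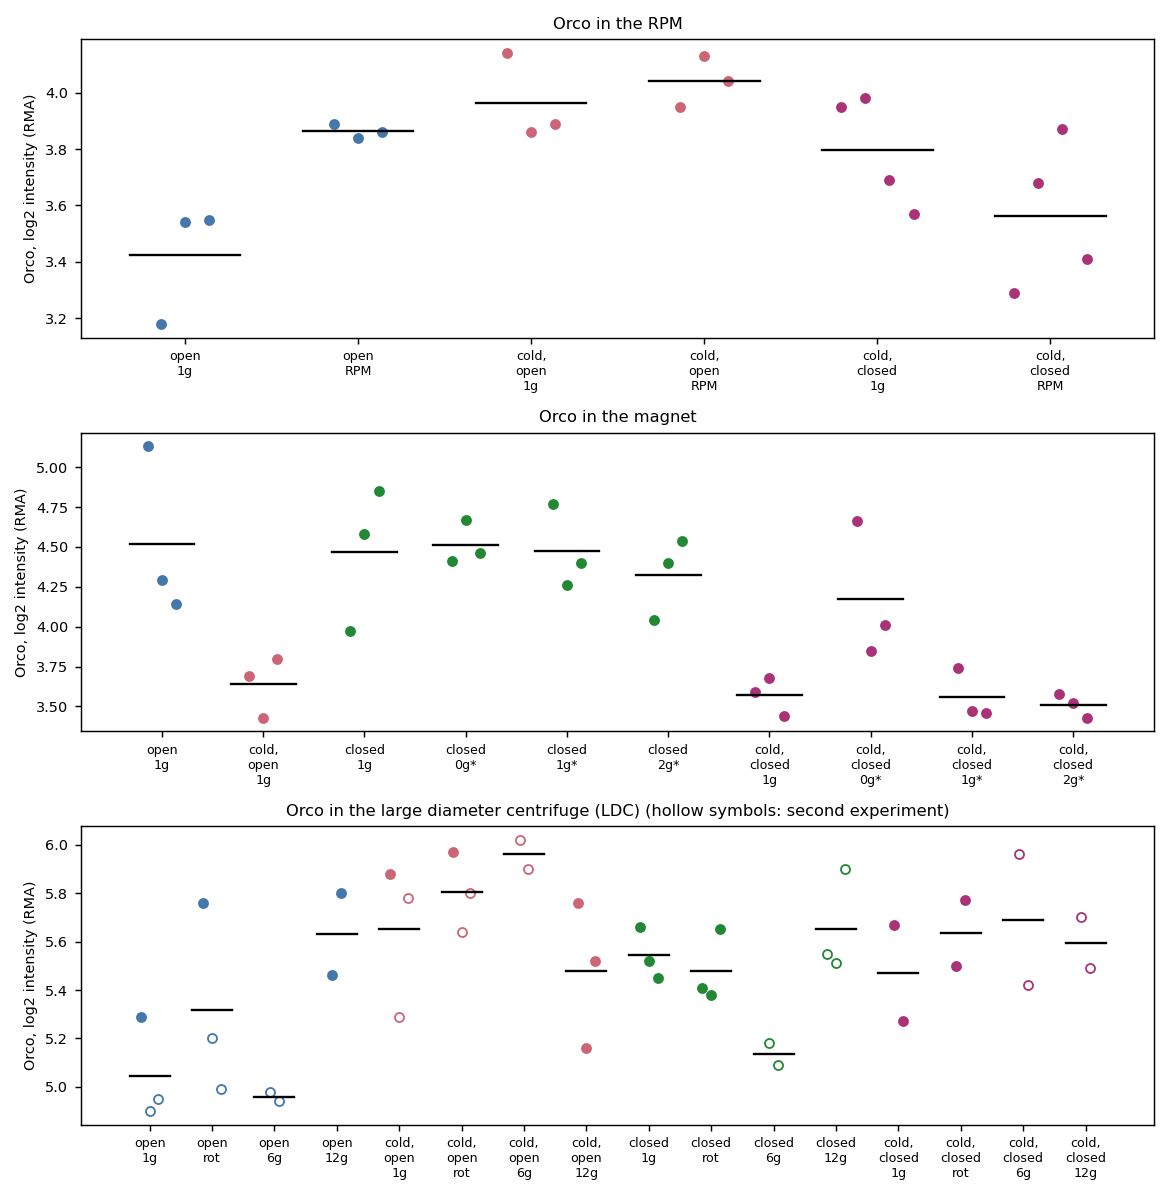
Orco log2 intensity on each array (points) with the mean of its group (bars), by environment and gravity level, for the RPM, the magnet and the LDC, each on its own scale. In the magnet the closed cold step groups at 1g, 1g* and 2g* and the open cold step controls lie at or below 3.8, and every array without the cold step lies at or above 3.97.

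The differences of Orco that were called in the deposited values all followed the cold step, and their direction was not the same in the 3 facilities. In the RPM the open 1g controls read 4.14, 3.86 and 3.89 after the cold step and 3.18, 3.54 and 3.55 without it. All cold step arrays lay above all others (3.96 ± 0.15 against 3.42 ± 0.21, log2 difference 0.54, SE 0.148, adjusted p = 0.0226). In the open 1g controls of the magnet the same comparison gave 3.69, 3.43 and 3.8 after the cold step and 5.13, 4.29 and 4.14 without it. Here all cold step arrays lay below the others (3.64 ± 0.19 against 4.52 ± 0.53, -0.88, SE 0.233, adjusted p = 0.00779). The closed 1g controls of the magnet read 3.59, 3.68 and 3.44 after the cold step and 3.97, 4.58 and 4.85 without it, again without overlap (3.57 ± 0.12 against 4.47 ± 0.45, -0.90, adjusted p = 0.00964). In the open 1g controls of the LDC the values were 5.88, 5.29 and 5.78 after the cold step and 5.29, 4.9 and 4.95 without it. The groups touched at 5.29, and the difference was 0.60 (5.65 ± 0.32 against 5.05 ± 0.21, SE 0.19, adjusted p = 0.0282). In the closed LDC controls Orco read 5.67 and 5.27 against 5.66, 5.52 and 5.45, a difference of -0.07 (adjusted p = 0.967).

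These calls of Orco rested on few arrays. In the RPM the call was lost without replicate 1 (0.42, adjusted p = 0.127) or replicate 2 (0.60, 0.0522) of the controls without constraint, or without replicate 1 (0.45, 0.102) or replicate 3 (0.58, 0.0534) of the cold step controls. In the magnet it was lost in open containers without replicate 1 of the controls without constraint (-0.575, adjusted p = 0.0933) and in closed ones without replicate 3 of the controls without the cold step (-0.705, 0.0761). In the LDC it was lost in 4 of 6 such fits, with adjusted p values up to 0.126, when replicate 2 or 3 without constraint or replicate 1 or 3 after the cold step was left out. Fits of the compared groups alone gave adjusted p = 0.0945 in the open magnet controls and 0.183 in the LDC. The direction was kept in each of these fits, and all 4 calls were kept after quantile normalization (adjusted p = 0.0187, 0.0101, 0.0245 and 0.0181 in the order above). The opposite directions in the RPM and the magnet were not tested against each other.

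Tuning receptors were called after the cold step as well. In the open RPM controls 2 members were called, Orco higher and Or88a lower, where 7.07% of all probe sets were called higher and 6.57% lower. Or88a, a trichoid receptor that answers to fly odours, read 3.13, 3.09 and 3.09 after the cold step and 3.51, 3.52 and 3.54 without it. The groups were far apart for this probe set (-0.42, SE 0.104, adjusted p = 0.0136), and the call was lost without replicate 2 of the controls without constraint (adjusted p = 0.0547) or replicate 3 of the cold step controls (0.0514). Groups were apart for 11 of the 63 members with lower and 4 with higher values after the cold step. Here and below such counts were made among the members only, so no share of all probe sets stands beside them.

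In the open magnet controls 6 members were lower after the cold step and 0 higher, where 10.6% of all probe sets were called lower and 11.2% higher. The share of the 63 members called lower was thus not above that of all probe sets. Or56a, the receptor for geosmin, a warning odour of microbes, read 3.04, 2.76 and 2.71 after the cold step and 4.31, 3.01 and 3.63 without it. Its groups overlapped (-0.81, SE 0.19, adjusted p = 0.00272), and it kept its call whichever array was left out, unlike the other 5. Without replicate 1 of the controls without constraint the difference of Or56a was -0.48 (adjusted p = 0.0318), and a fit of the compared groups alone gave an adjusted p of 0.161. The larval receptor Or59a read 3.46, 3.17 and 3.32 against 4.32, 3.71 and 3.72 (-0.60, adjusted p = 0.0209). Or94a, also a larval receptor, read 3.89, 3.82 and 3.64 against 4.61, 4 and 4.33 (-0.53, adjusted p = 0.0209), without overlap as for Or59a. Its neighbour Or94b read 3.11, 3.24 and 3.02 against 4.15, 3.24 and 3.61, where the groups met at 3.24 (-0.54, adjusted p = 0.0271). Both genes overlap Nha2 in the annotation. The coeloconic receptor Or35a was called by 1 of its 3 probe sets, with 3.1, 3.01 and 3.06 against 3.51, 3.32 and 3.46 (-0.37, adjusted p = 0.0125). Orco was the sixth, and the groups of 16 of the 63 members lay apart, all lower after the cold step. Replicate 1 of the controls without constraint was the highest of its group for all 6, and without it 1 of the 6 calls remained.

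In the closed magnet controls 5 members were lower after the cold step and 0 higher, beside 7.92% of all probe sets lower and 8.96% higher. The share of the 63 members called lower was about that of all probe sets. Or85d, a receptor of the maxillary palp, read 2.75, 2.82 and 2.91 after the cold step and 2.98, 3.46 and 3.19 without it (-0.38, SE 0.109, adjusted p = 0.0174). Or83c, the farnesol receptor, read 2.99, 2.8 and 2.96 against 3.34, 3.45 and 3.33 (-0.46, adjusted p = 0.0492). The larval receptor Or74a read 2.88, 3.02 and 2.94 against 3.19, 3.32 and 3.52 (-0.40, adjusted p = 0.0325). The trichoid receptor Or23a read 2.95, 2.89 and 2.93 against 3.07, 3.48 and 3.11 (-0.30, adjusted p = 0.0486). None of these groups overlapped, as was so for 33 of the 63 members, all lower after the cold step. All 5 calls, that of Orco included, were lost when some single array was left out. Of the 5, 1 remained without replicate 2 or 3 of the controls or replicate 1 or 2 of the cold step group.

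The downward shift in the magnet went through most of the family and through other dim probe sets. Of the 63 members 3 lay above 0 in open and 2 in closed containers. The median log2 difference of the members was -0.23 in open and -0.26 in closed containers, against -0.05 and -0.07 over all probe sets and -0.18 and -0.21 over the dimmest 25%, of which 6.71% and 6.77% were called lower. After quantile normalization the medians were -0.10 and -0.09, with 5 members lower in open containers and only Orco in closed ones. Receptors of the antenna (40 probe sets, medians -0.22 and -0.26), the palp (9 probe sets, -0.18 and -0.29) and the larval dorsal organ (12 probe sets, -0.245 and -0.26) had similar medians. In the open LDC controls the median was 0.03, and 2 members were called, Orco higher beside 6.55% of all probe sets and the larval receptor Or45b lower beside 9.48%. Or45b read 4.9, 4.6 and 4.5 after the cold step and 5.15, 4.79 and 5.26 without it, with overlap (-0.40, SE 0.13, adjusted p = 0.0335). Its call was lost without replicate 1 or 3 without constraint or replicate 2 or 3 after the cold step (adjusted p up to 0.201). In the closed LDC controls 0 of 63 members were called and 4 had an unadjusted p under 0.05, beside 1.41% of all probe sets called.

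**Figure D3:**
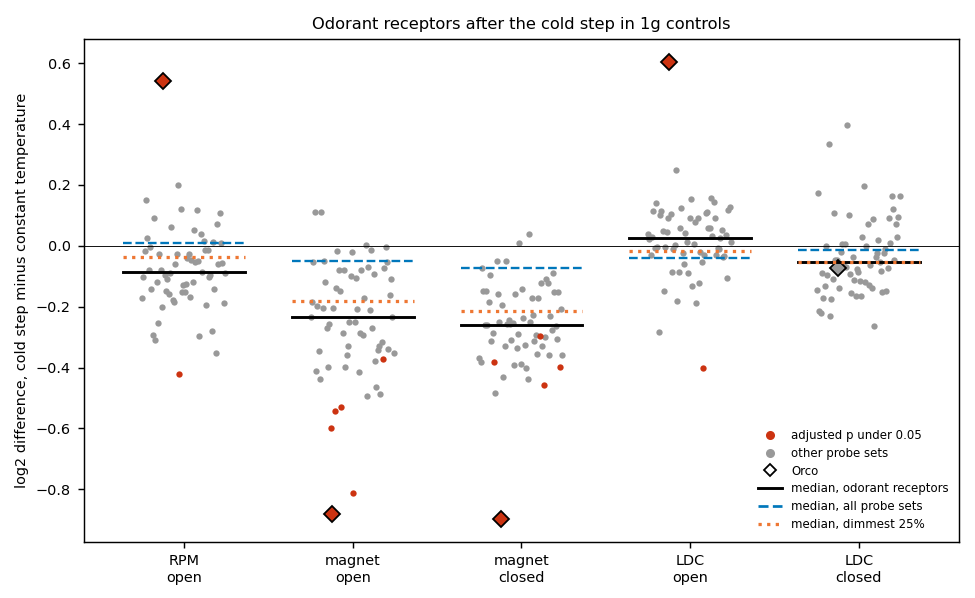
Log2 difference after the cold step in 1g controls for the 63 odorant receptor probe sets (points; diamonds are Orco, red marks an adjusted p under 0.05 by limma) in 5 comparisons within facilities. Lines give the medians of the receptors (solid), of all probe sets (dashed) and of the dimmest 25% (dotted). Orco is the highest point in the open RPM and LDC comparisons and the lowest in both magnet comparisons.

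Genes that work beside the receptors were counted as a list. Of 28 probe sets of olfactory partners, 4 were higher and 1 lower after the cold step in the RPM controls, 2 higher and 10 lower in the open and 1 higher and 6 lower in the closed magnet controls, 5 higher and 3 lower in the open LDC controls, and 0 either way in the closed ones. Snmp1, a membrane protein of pheromone sensing neurons, fell by 1.18 and 0.917 on the log2 scale in the open and closed magnet controls (adjusted p = 1.76e-05 and 0.000761) and rose by 1.04 in the open LDC controls (0.00551). It read 0.45 higher in the RPM controls (adjusted p = 0.163) and -0.03 in the closed LDC controls (0.989). Obp83b, an odorant binding protein of the antenna, rose by 1.06 in the RPM (adjusted p = 0.0414), fell by 2.06 and 0.85 in the magnet (3.47e-07 and 0.0165) and rose by 1.36 in the open LDC controls (0.000154). Obp19d, also a binding protein, fell by 4.32 and 2.45 in the open and closed magnet controls (adjusted p = 3.29e-10 and 8.13e-06) and rose by 2.28 in the open LDC controls (0.00012). The G protein subunit Galphaq had the largest differences of the list, in 1 of its 3 probe sets, with -5.76 and -3.90 in the magnet and 3.79 in the open LDC controls (adjusted p = 8.53e-12, 3.14e-08 and 2.78e-05), and its other 2 were not called. Obp28a, another binding protein, rose in the RPM (0.99, adjusted p = 0.0162) but fell in the open LDC controls (-0.48, 0.00532) and in the open magnet controls (-0.76, 0.00117). The others called lower in the magnet were Snmp2, Amt, ato, Obp59a and Gr21a in open and Obp59a and Obp84a in closed containers, and pdm3 was higher in both (2 probe sets and 1). Rh50 and Ir76b were higher and Gr63a lower in the RPM, and in the open LDC controls lush was higher and both probe sets of Snmp2 lower. Of the 17 probe sets of antennal ionotropic receptors Ir41a and Ir84a were lower and Ir21a higher in the open magnet controls, Ir75a, Ir40a, Ir93a and Ir92a were lower in the closed ones, and 0 were called in the RPM or open LDC controls.

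Markers of other tissues moved in the same comparisons. The mean log2 value of 8 accessory gland probe sets, a male organ, ran from 3.54 to 3.7 after the cold step and from 5.82 to 7.68 without it in the open magnet controls, and from 3.87 to 4.42 against 6.57 to 7.05 in the closed ones, with 8 of 8 called lower in both. In the open LDC controls it ran from 8.89 to 9.45 against 4.75 to 5.41, with 7 of 8 higher. In the RPM controls it ran from 4.51 to 5.61 against 3.85 to 4.93, with 0 of 8 called. The mean of 10 testis probe sets, also from a male organ, was not lower after the cold step in the magnet. It ran from 6.47 to 6.65 against 5.79 to 6.42 in the open and from 6.45 to 6.76 against 6.39 to 6.54 in the closed controls. In the open LDC controls it ran from 7.73 to 8.06 against 6.99 to 7.84. The RPM controls gave 6.53 to 6.71 against 6.32 to 6.71. The mean of 20 neuron probe sets was higher after the cold step in the magnet. Open controls gave 5.98 to 6.25 against 5.79 to 5.95, closed ones 6.03 to 6.16 against 5.86 to 5.9. In the LDC open controls gave 6.9 to 7.04 against 7.11 to 7.39, closed ones 7.07 to 7.11 against 7.17 to 7.28. The RPM gave 5.73 to 5.98 against 5.88 to 5.89 for neurons. The mean of 6 photoreceptor probe sets ran from 8.24 to 8.51 against 9.21 to 9.42 in the open and from 8.64 to 8.76 against 9.14 to 9.3 in the closed magnet controls, from 8.91 to 8.95 against 7.64 to 8.89 in the RPM and from 9.76 to 10.19 against 9.7 to 9.82 in the LDC. The mean of 8 cuticle probe sets of the late pupa ran from 9.45 to 9.54 after the cold step against 7.67 to 7.95 in the open and from 9.18 to 9.46 against 7.57 to 7.84 in the closed magnet controls, with 6 higher and 1 lower and 4 higher and 0 lower. It ran from 8.16 to 9.62 against 10.37 to 10.67 in the open LDC controls, with 1 higher and 5 lower, and from 8.92 to 9.12 against 8.71 to 9.24 in the RPM controls. In the closed LDC controls the cuticle mean ran from 8.63 to 9.07 against 9.88 to 10.27, where Orco differed by -0.07 and was not called. These cuticle probe sets stood higher where Orco stood lower in the magnet, and lower where it stood higher in the open LDC controls. They also stood lower in the closed LDC controls without a called difference of Orco. In the RPM their ranges overlapped while Orco stood higher. The mean of 3 fat body probe sets ran from 12.21 to 12.58 against 12.77 to 13.21 in the RPM controls. In the open LDC controls it ran from 11.02 to 12.6 against 12.77 to 13.19. Closed LDC controls gave 12.57 to 12.73 against 11.64 to 12.25. In the magnet it ran from 12.3 to 12.66 against 11.83 to 12.49 in open controls. Closed magnet controls gave 12.53 to 12.94 against 12.17 to 12.46.

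Neither the make-up of the pools nor the stage they had reached was tested as part of the Orco differences.

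Closing the container without a change of temperature or after the cold step called few members. In the RPM 0 of 63 members differed between closed and open 1g controls after the cold step (11 with an unadjusted p under 0.05), beside 0.00533% of all probe sets. In the magnet 0 differed at constant temperature (6 unadjusted) and 0 after the cold step (0 unadjusted), beside 0% and 1.58%. In the LDC 0 differed at constant temperature (4 unadjusted), beside 3.86%. After the cold step in the LDC, 1 member was higher in closed containers and 0 lower, beside 2.57% and 1.07% of all probe sets. This was Or94a, 1 of 7 members wholly higher in closed containers, beside 12 wholly lower. It read 6.18 and 6.13 in closed and 5.57, 5.41 and 5.62 in open containers (0.62, SE 0.164, adjusted p = 0.0324). Its adjusted p was 0.122 once the experiment was a term of the fit, and the call was lost in 4 of 5 fits that left out 1 array (each closed array, or open replicate 2 or 3).

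Simulated weightlessness in the RPM and the positions in the magnet called 0 of 63 members against 1g in any environment. In the RPM, 0.00533% of all probe sets were called without constraint, 0% after the cold step and 0% after the cold step with hypoxia, and 3, 4 and 3 members had an unadjusted p under 0.05. Orco read 3.89, 3.84 and 3.86 on the RPM and 3.18, 3.54 and 3.55 at 1g without constraint. The groups did not overlap, but the difference of 0.44 (SE 0.148) had an adjusted p of 0.209. With both constraints Or67d, the receptor for the male pheromone cis-vaccenyl acetate, averaged 3 ± 0.09 on the RPM and 2.78 ± 0.04 at 1g (n = 4 each, 0.22, SE 0.0712, adjusted p = 0.383).

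In the magnet under hypoxia, 0%, 0.0107% and 0.416% of all probe sets were called at 0g*, 1g* and 2g*, and 4, 1 and 0 members had an unadjusted p under 0.05. Or85e, a receptor of the maxillary palp, read 3.51, 4.21 and 3.68 at 0g* and 3.11, 3.21 and 3.47 at 1g, without overlap (0.54, SE 0.142, adjusted p = 0.998). The trichoid receptor Or65c averaged 4.01 ± 0.35 at 0g* and 3.99 ± 0.11 at 1g* against 3.45 ± 0.09 at 1g (n = 3 each, 0.56 and 0.54, adjusted p = 0.998 for both). After the cold step with hypoxia 0.501%, 0.0426% and 0.101% of all probe sets were called, and 2, 0 and 0 members had an unadjusted p under 0.05. Orco read 4.66, 3.85 and 4.01 at 0g* and 3.59, 3.68 and 3.44 at 1g. Every 0g* array lay above every control (0.60, SE 0.233, adjusted p = 0.449), while the 1g* and 2g* arrays lay between 3.43 and 3.74, within or beside the range of the controls. With limma array weights, which count variable arrays less, this difference was called (0.41, adjusted p = 0.00329), as were those of 0g* from 1g* (0.46, 0.00131) and from 2g* (0.505, 0.00145). From the deposited values without weights no member was called between positions of the magnet. The 0g* arrays of Orco did lie above all 1g* and 2g* arrays after the cold step with hypoxia (0.617 and 0.663). Under hypoxia 0 members were called between 2g* and 1g* (1 unadjusted), 0g* and 1g* (3) and 0g* and 2g* (4), beside 3.36%, 0.0213% and 0.352% of all probe sets, and after the cold step with hypoxia 0 were (0, 2 and 1 unadjusted), beside 0%, 2.49% and 3.85%.

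Hypergravity in the LDC gave calls in some environments and not in others. Without constraint, 0 of 63 members were called at 12g (8 unadjusted), 6g (7) or in the rotational control (2), beside 0.149%, 0% and 0.016% of all probe sets. Orco read 5.46 and 5.8 at 12g against 5.29, 4.9 and 4.95 at 1g, without overlap (0.58, adjusted p = 0.221). At 12g after the cold step 10 members were higher and 0 lower, beside 6.34% and 4.51% of all probe sets. In the same environment 0 were called at 6g (6 unadjusted) or in the rotational control (2), beside 0.213% and 0.0533%.

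The 10 receptors higher at 12g after the cold step came from several kinds of sensilla. From the trichoid sensillum at4, whose neurons serve pheromone detection, there were 3. Or65b read 5.73, 5.17 and 4.98 at 12g and 4.9, 4.45 and 4.53 at 1g, without overlap (0.67, SE 0.195, adjusted p = 0.0304). Or65a read 4.94, 5.08 and 4.68 against 4.32, 4.38 and 4.66 (0.45, SE 0.114, adjusted p = 0.0154), where the lowest 12g array lay just above the highest control. Or47b, which promotes male courtship, read 5.46, 5.75 and 5.21 against 4.95, 5.18 and 5.02 (0.42, SE 0.135, adjusted p = 0.0441), also without overlap. The remaining at4 receptors, Or65c and Or88a, were not called.

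The basiconic and coeloconic receptors of the antenna gave 4 of the 10. Or22a, a receptor for fruit esters, read 5.13, 5.86 and 5.12 at 12g and 4.97, 4.74 and 4.79 at 1g (0.54, SE 0.16, adjusted p = 0.0328). Or49b read 5.21, 4.8 and 4.78 against 4.46, 4.7 and 4.51 (0.37, adjusted p = 0.0467). Or49a, the receptor that detects odours of parasitoid wasps, read 4.39, 4.56 and 4.3 against 4.21, 4.16 and 4.13 (0.25, adjusted p = 0.0371). The groups of all 3 were apart. Or35a was called by 1 probe set, not the one lower in the magnet, with 4.46, 4.78 and 4.46 against 4.36, 4.25 and 4.29 (0.27, adjusted p = 0.0333), and not by its other 2.

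From the maxillary palp came the last 3. Or85d read 4.54, 4.89 and 4.55 at 12g and 4.2, 4.29 and 4.21 at 1g, the smallest p of the 10 (0.43, SE 0.0977, adjusted p = 0.00787). Or46a was called by 1 of its 3 probe sets, with 4.67, 5.02 and 4.37 against 4.43, 4.17 and 4.16 and an overlap (0.43, adjusted p = 0.0361). Or59c read 5.34, 5.46 and 5.13 against 4.95, 4.97 and 5.13, and the groups met at 5.13 (0.29, adjusted p = 0.0486). Orco read 5.76, 5.16 and 5.52 at 12g and 5.88, 5.29 and 5.78 at 1g, a difference of -0.17 that was not called.

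**Figure D4:**
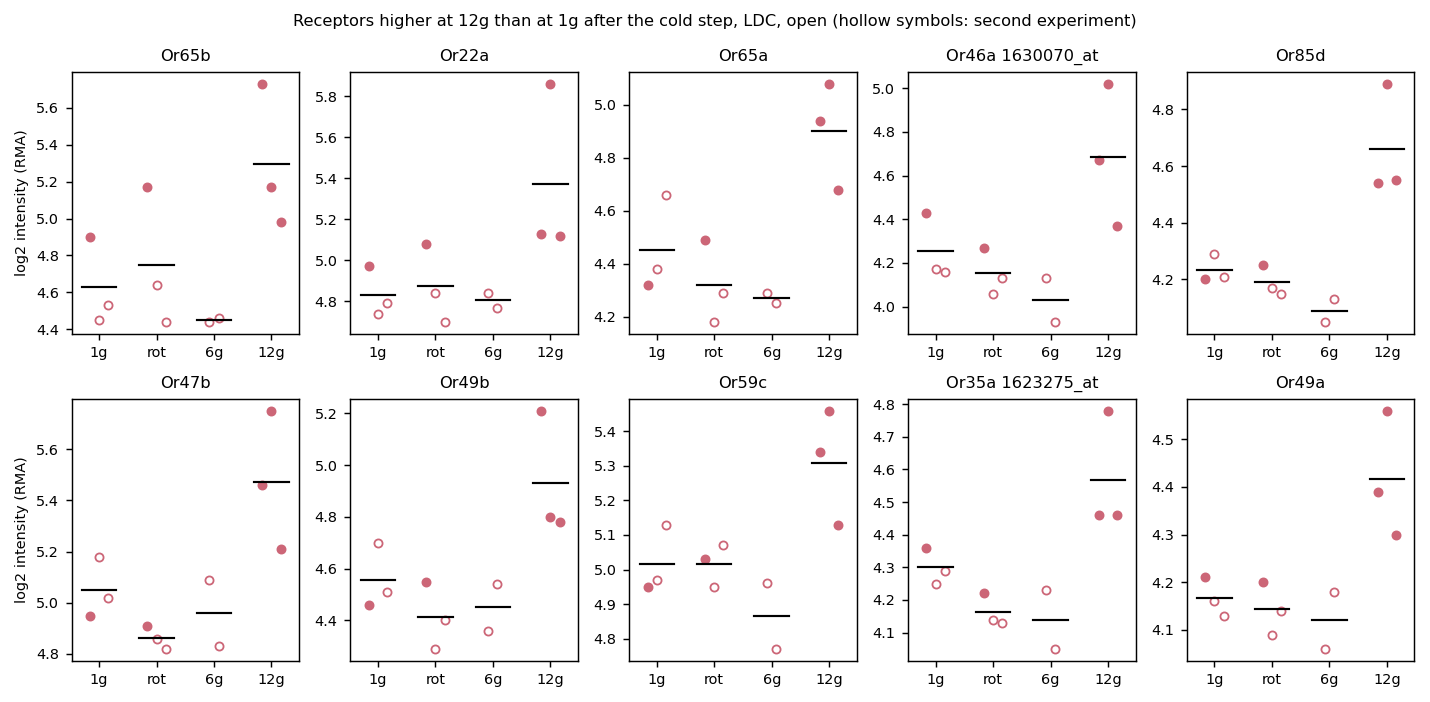
Log2 intensity of the 10 receptor probe sets called higher at 12g than at 1g after the cold step in the LDC (open containers), on each array (points) with group means (bars), for 1g (3 arrays), the rotational control (3), 6g (2) and 12g (3), each panel on its own scale. All 12g arrays are of the first experiment, both 6g arrays of the second (hollow symbols), and both 6g arrays lie below every 1g array for Or85d, Or65a, Or46a and Or35a and among or beside the 1g values for the others.

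As in the magnet, the shift went through the family, and the groups of 24 members were apart, all higher at 12g. Of the 63 members 62, all but Orco, lay above 0, with a median log2 difference of 0.22, against 0.05 over all probe sets and 0.18 over the dimmest 25%, of which 8.11% were called higher. After quantile normalization the median was 0.10 and 2 members were called, Or85d (adjusted p = 0.0237) and Or65b (0.0298). With the experiment as a term only Or85d was called (adjusted p = 0.0275). The 12g arrays belong to the first experiment, and of the 1g arrays 1 is from that experiment and 2 are from the other. Without 12g replicate 2 the calls of all 10 were lost, without 12g replicate 1 3 of the 10 remained, and without 1g replicate 3 and 2 the numbers were 2 and 4, while without 12g replicate 3 all 10 remained. The 8 accessory gland probe sets averaged 5.54 to 6.12 on the 12g arrays and 8.89 to 9.45 at 1g, with 7 of 8 lower. The 10 testis probe sets averaged 7.07 to 7.66 at 12g and 7.73 to 8.06 at 1g. The part of these male organs and that of the dim end in the receptor differences was not tested. Of the olfactory partners 3 of 28 probe sets were higher at 12g and 0 lower, those of Obp28a (1.07, adjusted p = 2.42e-05), Snmp2 (1.17, 0.0188) and Ir76b (0.61, 0.0269). Of the 17 of antennal ionotropic receptors 2 were higher, Ir92a (0.41, 0.0256) and Ir64a (0.65, 0.0295). The other probe sets of Snmp2 (0.91, adjusted p = 0.0707) and Ir92a (0.15, 0.389) were not called.

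Under hypoxia the members called at 12g were lower, not higher. There were 4 of them and 0 higher, beside 9.4% and 8.14% of all probe sets. The share of members called lower was below that of all probe sets. Or83c read 4.24, 4.07 and 4.24 at 12g and 4.71, 4.68 and 4.45 at 1g (-0.43, SE 0.141, adjusted p = 0.0358). Or49b read 4.21, 4.37 and 4.24 against 4.84, 4.63 and 4.51 (-0.39, adjusted p = 0.0291). Or45b read 4.64, 4.84 and 4.59 against 5.08, 4.97 and 5.16 (-0.38, adjusted p = 0.0426). Or85b, a basiconic receptor for fruit ketones, read 4.05, 4.13 and 4.11 against 4.59, 4.5 and 4.22 (-0.34, adjusted p = 0.0279). The groups of 28 members were apart, all lower at 12g and these 4 among them. Every 12g array was of the second experiment and every 1g array of the first, so gravity and experiment cannot be told apart. After quantile normalization 1 of the 4 was called (Or83c, adjusted p = 0.0438). Without 12g replicate 1 or 3, or 1g replicate 1 or 2, 0 of the 4 calls remained. At 6g and in the rotational control under hypoxia 0 members were called (3 and 0 unadjusted), beside 4.42% and 0% of all probe sets.

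After the cold step with hypoxia 0 members were called at 12g (4 unadjusted) and in the rotational control (2), beside 0.421% and 0.00533% of all probe sets. At 6g 1 member was lower and 0 higher, beside 3.96% and 2.45%. Groups were apart for 28 members with lower and 4 with higher values at 6g. Or94a read 5.26 and 5.66 at 6g and 6.18 and 6.13 at 1g, without overlap (-0.695, SE 0.18, adjusted p = 0.0205). The same 1g arrays gave its difference between closed and open containers above. The groups again differ in experiment, and the adjusted p was 0.177 with a term for it and rose to 0.363 at most when 1 array was left out (lost without 6g replicate 1 or either 1g array).

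The comparison of 12g with 6g set the first experiment against the second in open containers. Without constraint 4 members were higher at 12g and 0 lower, beside 6.88% and 6.28% of all probe sets. The share of members called higher was not above that of all probe sets. Or33a read 4.55 and 4.64 at 12g and 4.07 and 3.96 at 6g (0.58, adjusted p = 0.0178). Or92a, the receptor for diacetyl, read 5.57 and 5.38 against 4.68 and 4.94 (0.665, adjusted p = 0.0303). Or9a read 5.12 and 4.87 against 4.44 and 4.66 (0.445, adjusted p = 0.0303), and Or65a read 4.64 and 4.57 against 4.14 and 4.2 (0.435, adjusted p = 0.0417). None of these groups overlapped, nor did those of most members, with 58 of the 63 wholly higher at 12g. After quantile normalization only Or33a was called (adjusted p = 0.0331), with the experiment term none was, and without either 6g array 0 of the 4 calls remained.

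Between 12g and 6g after the cold step 37 members were higher at 12g and 0 lower, beside 23.5% of all probe sets higher and 19.5% lower, and 44.5% of the dimmest 25% higher. The groups of 48 members lay wholly higher at 12g and of 1 member wholly lower, and the 5 with the smallest p were among the former. Or7a, a basiconic receptor for leaf aldehydes, read 4.62, 4.89 and 4.5 at 12g and 4.04 and 4.07 at 6g (0.615, SE 0.102, adjusted p = 0.000191). Or85d read 4.05 and 4.13 at 6g (0.57, adjusted p = 0.000545) and Or65a 4.29 and 4.25 (0.63, adjusted p = 0.000828), beside the 12g values above. Or85a read 4.3, 4.6 and 4.16 against 3.82 and 3.87 (0.51, adjusted p = 0.00104). Or35a was called by all 3 of its probe sets here, and the one named above gave 4.23 and 4.05 at 6g (0.43, adjusted p = 0.00107). The largest difference was that of Or65b (4.44 and 4.46 at 6g, 0.84, adjusted p = 0.0044).

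The other receptors called there were Or1a, Or2a, Or13a, Or22a, Or22c, Or24a, Or30a, Or33b, Or43a, Or43b, Or45a, Or46a (2 probe sets), Or47b, Or49a, Or49b, Or59a, Or59b, Or59c, Or63a, Or65c, Or67a, Or67b, Or74a, Or82a, Or83c, Or85e, Or85f and Or98b. By organ the 37 were 23 of 40 probe sets of the antenna, 5 of 9 of the palp and 8 of 12 of the larval dorsal organ, besides Or98b. Of the 37 calls 27 were lost when some single array was left out, and 14 remained without 6g replicate 2, 20 without 6g replicate 1, and 23 and 25 without 12g replicate 1 and 2. After quantile normalization 8 members were higher and 3 lower, and with the experiment term 9 were higher and 1 lower. Orco differed in the other direction from most members. It read 5.76, 5.16 and 5.52 at 12g and 6.02 and 5.9 at 6g, without overlap (-0.48, SE 0.213, adjusted p = 0.0687), and was called lower after quantile normalization (-0.63, 0.0205) and with the experiment term (-0.89, 0.00557). Or10a (-0.35, adjusted p = 0.0225) and Or98a (-0.29, 0.0252) were the others called lower after quantile normalization. The accessory gland mean was 9.89 to 10.11 and the testis mean 8.16 to 8.19 on the 6g arrays. In closed containers, where both levels belong to the second experiment, 0 members were called between 12g and 6g under hypoxia (3 unadjusted) or after the cold step with hypoxia (1), beside 12.5% and 7.71% of all probe sets.

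**Figure D5:**
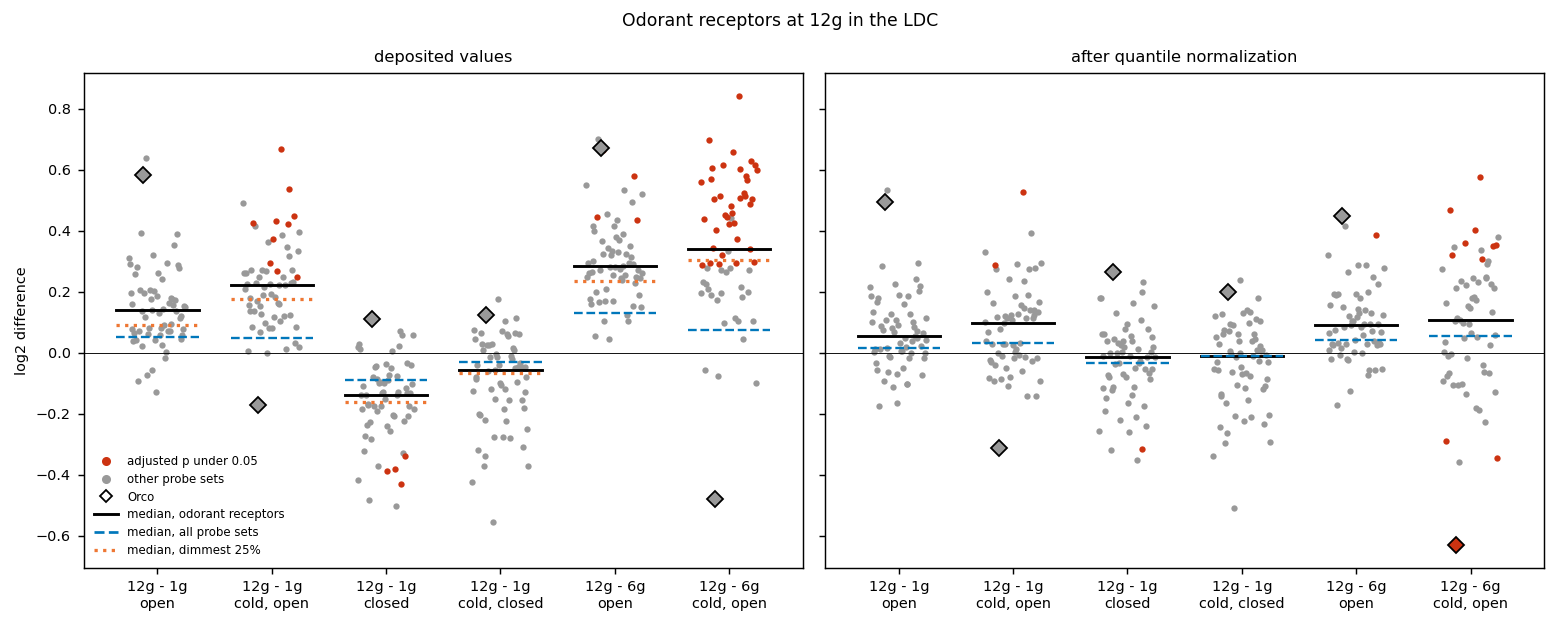
Log2 difference of the 63 odorant receptor probe sets (points; diamonds are Orco, red marks an adjusted p under 0.05 by limma) at 12g against 1g in 4 environments and against 6g in open containers, from the deposited values (left) and after quantile normalization within the LDC (right). Lines give the medians of the receptors (solid), of all probe sets (dashed) and, on the left, of the dimmest 25% (dotted). The receptor medians lie away from 0 on the left, at 0.22 and 0.34 in the cold step comparisons, and at 0.10 and 0.11 on the right.

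Whether the response at 12g depended on the environment was tested as an interaction. Between hypoxia and no constraint 5 members had a lower response in hypoxia and 0 a higher one, beside 8.53% and 5.93% of all probe sets. Here too the share of members was not above that of all probe sets. Or85e read 5.2 and 4.81 at 12g and 4.69, 4.43 and 4.84 at 1g without constraint, and 4.53, 4.5 and 4.54 against 4.87, 4.87 and 4.81 under hypoxia (interaction -0.68, SE 0.229, adjusted p = 0.0472). Or69a (1 of its 3 probe sets) read 4.6 and 4.9 against 4.44, 4.4 and 4.64, and 4.37, 4.34 and 4.41 against 4.81, 4.6 and 4.68 (-0.58, adjusted p = 0.0398). The others were Or56a (-0.50, adjusted p = 0.0495), Or85b (-0.48, 0.0444) and Or13a (-0.41, 0.0382). In both environments the 12g arrays come from another experiment than all or some of the controls, in opposite directions, and 0 of the 5 were called after quantile normalization or with the experiment term. The remaining interactions called 0 members, with 0 to 11 members at an unadjusted p under 0.05. They were those of the RPM after the cold step without and with hypoxia (0% and 0% of all probe sets called), of the 3 magnet positions with the cold step (0%, 0.016% and 0%), and of the LDC. In the LDC they gave 3.35%, 0% and 0% at 12g, 6g and in the rotational control for the cold step, 0.176% and 0% at 6g and in the rotational control for hypoxia, and 3.78%, 0.868% and 0.00533% for both together.

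Across all groups of a facility, 1 member differed in the RPM, 8 in the magnet and 29 in the LDC by the F test, beside 17.8%, 28.7% and 67.8% of all probe sets. The 29 in the LDC were Orco, Or1a, Or2a, Or7a, Or13a, Or22b, Or24a, Or30a, Or35a (3 probe sets), Or45a, Or45b, Or46a (1 probe set), Or47b, Or49a, Or49b, Or59c, Or65a, Or65b, Or67b, Or69a (1 probe set), Or74a, Or82a, Or83c, Or85a, Or85d, Or85f and Or94a, with adjusted p values from 0.00176 to 0.046. The 8 in the magnet were Orco, Or35a (1 probe set), Or74a, Or83c, Or85e, Or85f, Or94a and Or94b, with adjusted p values up to 0.0464. After quantile normalization 1, 2 (Orco and Or85e) and 7 were called. The share of members called in the LDC was below that of all probe sets, as in the other facilities.

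The genes whose values followed Orco most closely were ranked by the mean over the 3 facilities of Pearson's r across arrays (20, 30 and 40), as a description. They were Dph5 (0.848), CG9394 (0.831), Obp19b (0.822), Tps1 (0.819), pkm (0.819), CG13428 (0.816), CG10205 (0.813), Snmp1 (0.807), Ak1 (0.807) and Spn43Ad (0.806). Obp19b is an odorant binding protein, Tps1 a trehalose synthesis enzyme and Ak1 an adenylate kinase. No tuning receptor came near them. The closest was Or94b at a mean r of 0.387, and 12.4% of the probe sets with 1 gene symbol followed Orco more closely than it did.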

How the data were processed

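RNA of pooled late pupae was hybridised to Affymetrix Drosophila Genome 2 arrays. The deposited values are log2 intensities made by the authors with RMA, which subtracts background, normalizes arrays by quantiles and summarises the probes of a probe set; versions, and whether the facilities were normalized together, are not given in the sources used here. RMA fits its probe model over the arrays it is given, so levels were not compared between facilities. Of 18952 probe sets 183 controls were left out, and of the 18769 tested 13647 carry 1 gene symbol in the platform annotation, 402 several and 4720 none. Or19a and Or19b share a probe set and Or83a was not analysed here. The number of arrays limits the precision.

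Each facility was fitted on its own with limma 3.58.1 (R 4.3.3, tables in Python 3.11.15), with a mean for each group of that facility, and p-values were adjusted by the Benjamini-Hochberg method over all 18769 probe sets in each comparison. A probe set was called at an adjusted p under 0.05. A fold is given as a log2 difference, group named first minus the other. The dimmest 25% are the probe sets with the lowest means in a facility. No set test was run, and counts over lists are descriptions. Groups without overlap were counted among the members only, not over all probe sets, and are descriptions too. Samples were grouped by their labels. No label gives the experiment within the LDC, which was taken from the array names marked as a parallel second experiment in the study's methods; both 12g arrays after the cold step with hypoxia carry names that differ there by a letter and were placed in the second experiment. The fit was tested on simulated data.

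Members and gene lists were chosen with earlier results of these data known. Named were Orco, every receptor called in a comparison, interaction or F test, receptors among the 5 smallest p values of a comparison, and the 10 genes closest to Orco. The rule also names called members of the other gene lists, which are named here for the olfactory lists in the cold step controls and at 12g against 1g after the cold step, and counted elsewhere. Replicate numbers were checked for pairing by the correlation of deviations from group means. In 2 of 22 comparisons with 3 or more pairs, the LDC rotational control without constraint and the cold step in open LDC controls, every pair exceeded 0.1, and there the numbers also separate the experiments. Over all 22 comparisons the correlations ran from -0.553 to 0.577, and the block was kept as an alternative. Other alternatives were quantile normalization and median centring within a facility, array weights, a trended and robust variance, fits of the compared groups alone, an unadjusted p under 0.001, averaging of a gene's probe sets, a term for the second experiment or arrays of 1 experiment only, and leaving out each array. Added after seeing the data were a replicate block across environments and a fit adjusted for the 10th percentile of each array.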

Additional observations from a re-analysis of the deposited data

Results flagged for a closer look

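In the RPM after the cold step with hypoxia, 1 of the 4 arrays had a receptor median of 3.38 and the others 3.25 to 3.26, a gap of 0.923 of the range of the group. That array also had the highest 10th percentile of the group (3.3). Both groups of 4 arrays were examined in this way for Orco and for the receptor median, 4 values in all, and chance marks about 1 in 20.

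The response to 12g in the LDC differed between hypoxia and no constraint for 5 receptors by limma's interaction test. The differences were -0.58 for Or69a, -0.41 for Or13a, -0.50 for Or56a, -0.678 for Or85e and -0.477 for Or85b. In hypoxia the 12g arrays belong to the second experiment and the controls to the first, and without constraint the 12g arrays belong to the first, so environment and experiment cannot be told apart here.

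Or49b stood 0.373 higher at 12g after the cold step and 0.387 lower (-0.387) at 12g in hypoxia, with every 12g array above the controls in the former and below them in the latter. The difference between these environments was not tested. Orco was 0.54 higher after the cold step in the open controls of the RPM study and -0.88 lower in those of the magnet, with no overlap in either. That difference was not tested either.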

How the results depend on the processing

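The counts of called members depended on the processing. In this section they stand without the share of all probe sets called in the same fit. A change in them therefore cannot be told from a general change in the number of calls. After quantile normalization they were 1 in place of 5 for the cold step in closed magnet controls, 2 in place of 10 at 12g after the cold step, 1 in place of 4 at 12g in hypoxia, 1 in place of 4 and 11 in place of 37 for 12g against 6g without constraint and after the cold step, 0 in place of 5 for the 12g interaction with hypoxia, and 2 and 7 in place of 8 and 29 for the F tests of the magnet and the LDC. Adjusting for the 10th percentile of each array gave 1, 1, 0, 1, 11, 0, 2 and 7 for the same results in the same order. With a term for the second experiment the LDC counts were 1 at 12g after the cold step, 0 at 12g in hypoxia, 0 at 6g after the cold step with hypoxia, 0 for closed against open containers after the cold step, 0 and 10 for 12g against 6g without constraint and after the cold step, 1 for it in hypoxia (0 before), 0 for the interaction and 10 for the F test. With arrays of the first experiment alone they were 0 at 12g after the cold step, 0 for the cold step in open controls and 0 for closed against open containers after it, where the first experiment holds only 1 open 1g array in each environment, so that these fits rest on single arrays whose spread is taken from the other groups. With the second alone they were 1 for the rotational control after the cold step, 4 for the cold step in open controls and 1 for 12g against 6g in hypoxia.

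Median centring gave 14 for the cold step in open magnet controls, 20 at 12g after the cold step, 0 at 12g in hypoxia, 0 for closed against open containers after the cold step in the LDC, 17 for 12g against 6g without constraint and 0 for the interaction with hypoxia. Array weights gave 5 for the cold step in the RPM, 12 and 27 in open and closed magnet controls, 16, 12 and 10 for 0g* against 1g, 1g* and 2g* after the cold step with hypoxia, 1 at 6g and 2 in the rotational control after the cold step, 23 and 7 at 12g and 6g in hypoxia, 1 for the cold step in closed LDC controls, 4 and 2 for closed against open LDC controls without and after it, 11 and 1 for 12g against 6g without constraint and in hypoxia, and 15 for the interaction. Fits of the compared groups alone gave 0 for the cold step in open magnet and open LDC controls, at 12g after the cold step, at 6g after the cold step with hypoxia, for closed against open LDC controls after the cold step, for 12g against 6g without constraint and for the interaction, 2 at 12g in hypoxia and 15 for 12g against 6g after the cold step. An unadjusted p under 0.001 gave 1 for the cold step in the RPM, 1 at 0g* in hypoxia, 2 and 1 for the cold step in the open and closed magnet controls, 2 and 0 at 12g after the cold step and in hypoxia, 0 for the cold step in open LDC controls, 1 and 12 for 12g against 6g and 0 for the interaction. The trended and robust variance gave 10 for 12g against 6g without constraint, 9 for the interaction with hypoxia, 1 for that with the cold step and hypoxia and 2 for the F test of the RPM. Means over the probe sets of a gene gave 3 for the interaction with hypoxia.

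The replicate block of the titles gave 7 at 12g in hypoxia and 9 for 12g against 6g without constraint, and across environments 3 for the cold step in closed magnet controls. The replicate block by array letter gave 0 at 12g after the cold step, 10 at 12g in hypoxia, 0 and 9 for 12g against 6g and 1 for the interaction with hypoxia. The block moved no other count of members by over 1.5 times, and the replicate numbers did not in general pair the arrays. After the cold step, the difference between 12g and 6g turned to -0.003 for Or2a after quantile normalization and to -0.015 for Or67a with the block by letter.

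Leaving out 1 array gave 0 to 3 members for the cold step in the RPM, 1 to 18 and 1 to 9 in the open and closed magnet controls and 0 to 2 in the open LDC controls. It gave 0 to 1 for 2g* against 1g*, and 0 to 1 for 0g* against 2g*, in hypoxia. At 12g it gave 0 to 1 without constraint, 0 to 20 after the cold step and 0 to 5 in hypoxia, and at 6g after the cold step with hypoxia 0 to 1. For closed against open LDC controls it gave 0 to 1 without and 0 to 1 after the cold step, for 12g against 6g 0 to 2 without constraint and 14 to 38 after the cold step, and for the 12g interactions 0 to 12 with hypoxia and 0 to 2 with the cold step and hypoxia. The causes of these shifts were not tested. A filter on probe sets above the median left 0 members in any facility and gave no value. The dim signal of the family, with groups of 2 to 4 arrays, limits what could be detected.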
